A study of Xenopus laevis with 4 samples.

Results

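The genes described here encode the nuclear pore complex, the receptors that carry cargo through it, and the lamina and envelope around it, together with a few genes that share their names. They were chosen by gene name alone, without its final .L or .S. Names were taken that began with nup, ipo, xpo, rcc, sun or pom followed by a digit. Names that began with kpna, kpnb, tnpo, ranbp, lmn, syne, lem or nxf were also taken. So were those that began with rangap, xpot, cse1l, ndc1, aaas, nutf2, seh1l or ahctf1, and the exact names ran and tpr. The rule gave 0 of 45 listed m5C sites at stage 25 and 179 of 16233 at stage 0. The 179 sites lay in 65 named genes out of 7093 names with a listed site at stage 0.

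5-methylcytosine (m5C) was mapped by RNA bisulfite sequencing of polyadenylated RNA from pools of wild-type Xenopus laevis embryos at stage 25, a tailbud stage, and at stage 0, when the embryo carries the RNA stored by its mother. Bisulfite converts unmethylated cytosine, which is then read as T, and leaves m5C to be read as C, so the level of a site is the percentage of its reads that show C. Each stage had 2 libraries, which the authors combined into 1 list of called sites, so no value below has a spread between replicates, and whether the replicates were technical or biological is not settled by the study's text. Sample titles begin with XT at stage 25 and with XL at stage 0, while the organism given for all 4 libraries is X. laevis. The paper's methods describe stage 25 embryos for X. laevis only, and X. tropicalis embryos at stage 0 only. X. laevis is an allotetraploid with an L and an S subgenome, named by the suffix of each gene. Of 13 genes known from oocytes and eggs, 4 had a listed site at stage 25 (h1foo, npm2, ddx25 and ccnb5) and 8 at stage 0. Of 13 tailbud markers, 0 had a listed site at stage 25 and 2 (krt8 and sox3) at stage 0. A listed site is not a measure of expression, and the markers were chosen with earlier results of these data known. Neither stage label could therefore be checked by these markers.

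Nuclear pore complexes are built from a scaffold of structural nucleoporins set in the nuclear envelope and a channel lined with phenylalanine-glycine (FG) repeats. Importins and exportins bind cargo and cross this channel, and the GTPase Ran, loaded with GTP on chromatin and made to hydrolyse it in the cytoplasm, sets the direction of travel. The frog egg stores pore, lamin and transport proteins for the many nuclei of the cleaving embryo, and egg extracts are a classical system for the study of nuclear assembly.

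No cytosine of these genes was listed at stage 25. Over all genes, 36 of the 16233 stage 0 sites (0.222%) were listed again at stage 25, and 0 of the 179 were among them. The stage 25 list held 45 sites in all, so the absence of a small group of genes from it is read against a list that lacks nearly every other gene too. An unlisted cytosine can be an unmethylated one, one under the minimum level or one without reads, which cannot be told apart here. In bulk RNA, less of a transcript and fewer cells that hold it cannot be told apart either. No levels could be compared between the stages, and all values below are from stage 0.

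At stage 0, 63 of 120 protein-coding genes whose RefSeq symbols match the rule had a listed site, which is 52.5%, against 22.9% of all 22425 named protein-coding RefSeq genes. By role, the share was 13 of 17 for scaffold nucleoporins, 7 of 10 for FG-repeat, central channel and cytoplasmic nucleoporins, 5 of 6 for basket nucleoporins and 5 of 6 for pore membrane proteins. It was 13 of 29 for import receptors, 6 of 15 for export receptors and 10 of 18 for lamina and envelope proteins. Of the genes of the Ran cycle, 2 of 13 had a site. Ran itself, its GTPase-activating protein rangap1, its importer nutf2 and its binding protein ranbp1 were not in the list in any copy, nor was cse1l, which returns importin alpha to the cytoplasm. Also absent were xpo1.L, tpr.L, lmna.L, lmnb1.S and both copies of nup98l, the only nup98-like symbols in the RefSeq list. The names kpnb1.S and nup205.S count among those without a site, although the listed kpnb1.L and 3 of the 4 sites of nup205.L lie on S chromosomes, and RefSeq gives nup205.L as another name of nup205.S. A RefSeq gene counted only if its symbol was among the listed names. That gave 63 genes from 65 names here and 5132 genes from 7093 names in the whole stage 0 list. Listed names thus gave a counted gene more often here. Expression was not measured, and the parts of expression and of naming in these shares were not tested.

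The 179 sites were covered by 136974 reads in total, from 33 to 12595 per site with a median of 229 reads, against a median of 145 for the other 16054 sites. Levels ranged from 10%, the minimum for a site to be listed, to 91.7%. Their mean was 26.6% ± 16.4 (SD over the 179 sites, which share both libraries) and their median 21.8%, against a mean of 29.4% ± 21.2 and a median of 21.0% for the rest. Listed sites of these genes were therefore mostly methylated in a minority of reads. Of them, 17 (9.50%) had a level of at least 50%, against 16.3% of the whole stage 0 list, and 79 (44.1%) were under 20%, against 47.2%. Sites share genes and both libraries, so no interval or test is given for these shares. The 17 sites lay in 14 genes. The 95% Wilson intervals below are of the reads at a site and cover counting error only. PCR reads that carry no molecular identifier cannot be counted as separate molecules.

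**Figure D1:**
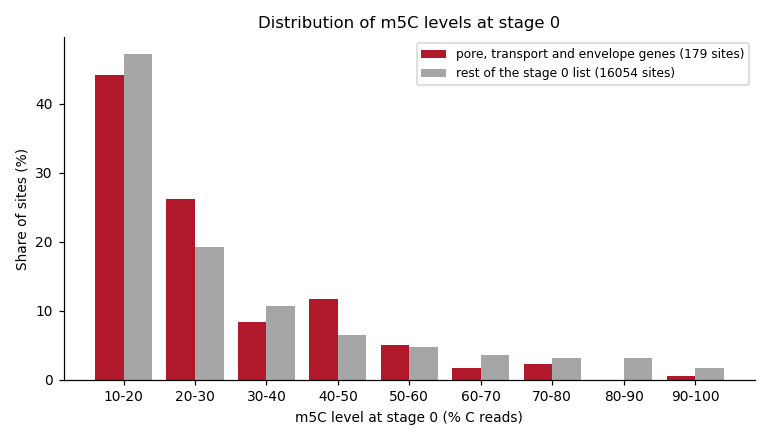
Share of listed stage 0 sites (%, vertical axis) in each 10-point range of m5C level (% C reads, horizontal axis), in red for the 179 sites of pore, transport and envelope genes and in grey for the other 16054 sites. The red bars are lower than the grey ones at levels of 60% and above, and 9.50% of the red sites against 16.4% of the grey ones have a level of at least 50%.

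The share of high levels was lowest, beside that of the other genes, in the well-covered sites. At 500 reads or more, 3 of 57 sites (5.26%) had a level of at least 50%, against 16.6% of the other genes' sites at that depth. Between 100 and 500 reads the count was 5 of 65 (7.69%, against 16.0%). Between 50 and 100 reads it was 6 of 35 (17.1%, against 15.9%), and under 50 reads 3 of 22 (13.6%, against 18.0%). Coverage and level were weakly and inversely related across the 179 sites (Spearman's rho −0.13, against −0.03 over all 16233 sites, given as a description because sites share libraries). The part of coverage in these shares was not tested.

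**Figure D2:**
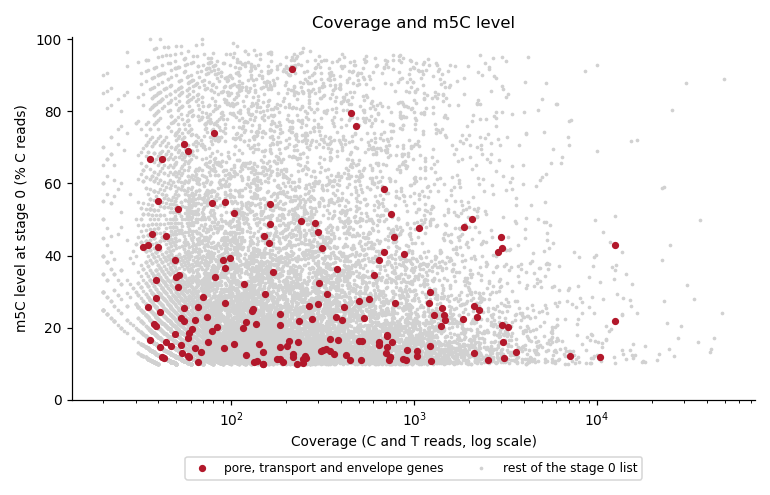
Coverage (C and T reads, log scale, horizontal axis) and m5C level (% C reads, vertical axis) of the 179 sites of pore, transport and envelope genes (red) over the rest of the stage 0 list (grey). The red sites with 500 reads or more lie mostly under 50%, and the site at 91.7% has 216 reads.

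Scaffold nucleoporins, which make the Y complex and the inner ring, held 46 sites in 14 named genes, with a median level of 22.7%. The gene ahctf1 encodes ELYS, which binds chromatin and seeds pore assembly after mitosis. Its S copy had 7 sites from 12.6% to 51.4%, and its L copy had 5 from 10.4% to 49.6%. The 51.4% site of ahctf1.S (385 of 749 reads, 47.8 to 55.0) lies at position 42372992 on the plus strand of chromosome 5S in the v9.2 assembly. All positions are those of the deposited lists, which could start from 0 or from 1. The inner ring gene nup155.L had 6 sites, and a single one stood apart: 76.0% (364 of 479 reads, 72.0 to 79.6) at position 201902849 on the plus strand of chromosome 1L, the most 5′ of the 6. The other 5 sites of nup155.L, all further 3′, were between 12.3% and 29.4% at 153 to 1042 reads, so their intervals do not reach that of the first.

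Among the other scaffold genes, nup133.L of the Y complex had 5 sites within 655 nt of genomic sequence, covered by 35 to 49 reads each. Levels of nup133.L spanned 14.6% to 66.7% (28 of 42 reads, 51.6 to 79.0). The inner ring gene nup205.L had its highest site at 69.0% (40 of 58 reads, 56.2 to 79.4) and 3 others at 14.3% to 28.6%, the last of these under another gene identifier on a short scaffold. In seh1l.L, another Y-complex gene, 51.9% (54 of 104 reads, 42.4 to 61.3) stood between neighbours of 16.7% and 12.3%. In nup107.S, a founding member of the Y complex, 3 deeply covered sites spanned a narrower range, at 17.8%, 20.5% and 23.6% (713, 1402 and 1293 reads). Even so, the intervals of the lowest (15.2 to 20.8) and the highest (21.4 to 26.0) did not overlap. The 3 sites of nup43.S had 2140, 2895 and 2210 reads and levels of 26.0%, 41.0% and 23.0%, with an interval of the middle site (39.3 to 42.8) above both others. The inner ring gene nup35.S had 5 sites from 13.6% to 42.4%, the highest on 33 reads. The remaining scaffold genes nup35.L, nup133.S, nup160.L, nup37.L and nup93.L had 1 site each, from 11.9% to 34.1%.

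Nucleoporins of the central channel and the cytoplasmic face held 20 sites in 7 genes, with a median level of 21.2%. The most sites of any gene in the group of 65 were in ranbp2.S, which encodes the large protein of the cytoplasmic filaments that binds Ran and acts in SUMO conjugation. Its 9 sites ranged from 14.2% to 74.1% (60 of 81 reads, 63.6 to 82.4), and the next highest was at 52.9% (27 of 51 reads, 39.5 to 65.9). The 74.1% site, on the minus strand of chromosome 2S at position 91612298, was 74 nt 3′ of a site at 20.7% (184 reads). The cytoplasmic nucleoporin nup88.L had 5 sites from 12.8% to 27.0% at 219 to 790 reads, and none was high. The central channel genes nup62.L, nup54.S and nup58.L had 1 site each, at 11.1% (728 reads), 27.5% (499 reads) and 48.8% (162 reads).

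The nuclear basket genes held 18 sites in 5 genes, with a median of 16.4% and 0 sites of at least 50%. In nup153.S, which encodes the FG nucleoporin of the basket, 8 sites ranged from 10.04% to 46.6% (139 of 298 reads, 41.1 to 52.3). Of the 8 sites, 2 lay within 134 nt of each other and the other 6 lay more than 40 kb further 3′ in the genome. tpr.S, which makes the coiled-coil filaments of the basket, had 3 sites with 1865, 3105 and 1201 reads and levels of 47.8%, 11.5% and 26.8%. Its most 5′ site (892 of 1865 reads, 45.6 to 50.1; chromosome 4S, position 92371715, plus strand) stood clear of the other pair. nup50.S, whose protein helps to release imported cargo, had 4 sites from 11.0% to 21.1%.

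Pore membrane genes held 18 sites in 5 genes, with a median of 22.0%. The highest was the single site of pom121-b, a membrane nucleoporin, at 54.4% (43 of 79 reads, 43.5 to 65.0). nup210.L, which encodes a membrane glycoprotein of the pore, had 5 sites from 12.4% to 45.9% at only 37 to 121 reads. aaas.L, whose protein is tethered to the pore membrane by NDC1, had 5 sites from 11.0% to 32.3%. ndc1 itself had 3 sites in L, from 10% to 38.8%, and 4 in S, from 13.6% to 36.3%.

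**Figure D3:**
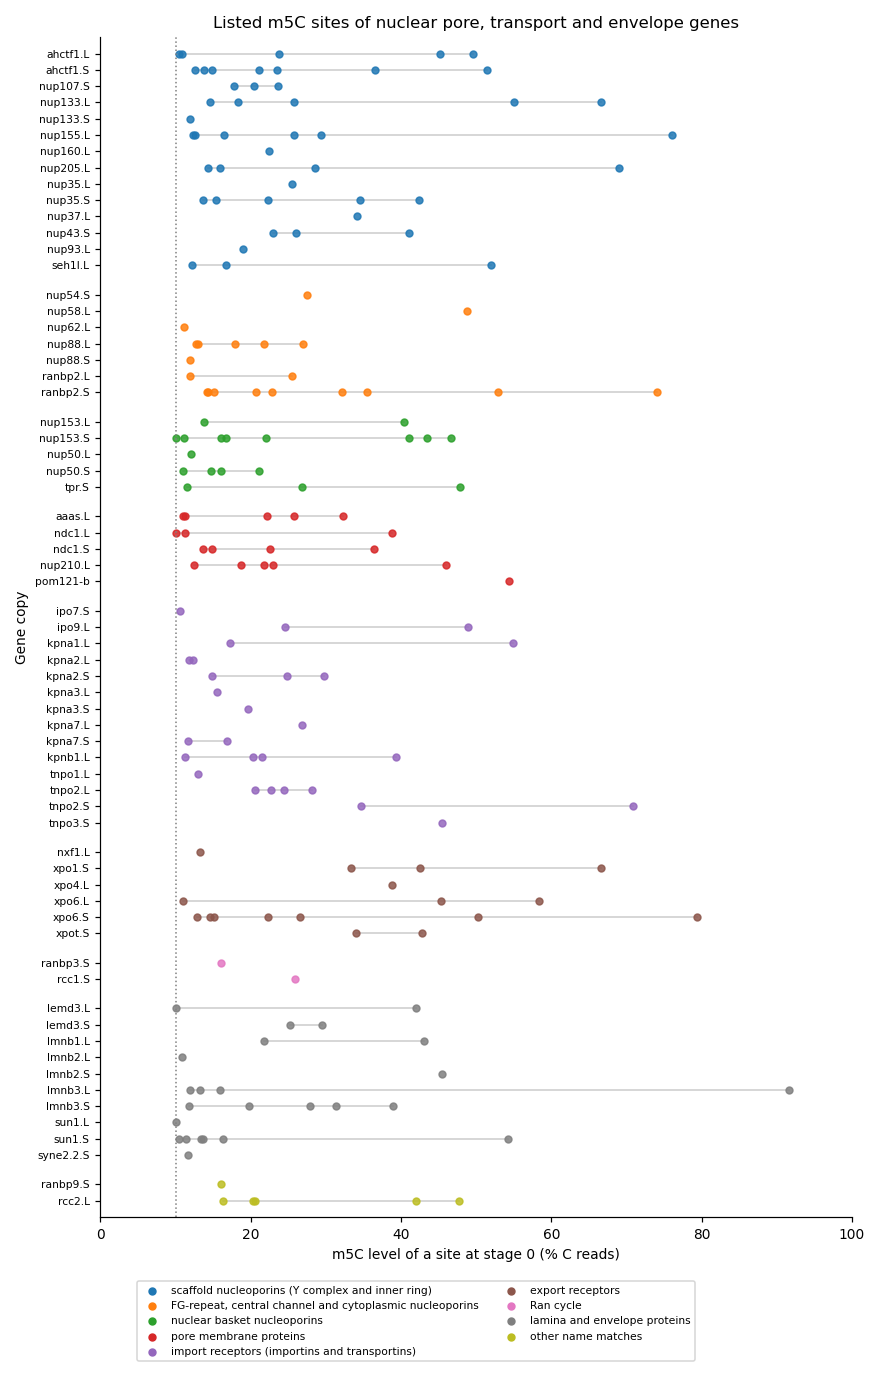
m5C level (% C reads, horizontal axis) of each of the 179 listed stage 0 sites by gene copy (vertical axis), coloured by role, with a line joining the lowest and highest site of a gene and a dotted line at the 10% minimum. Most genes with several sites span from near the minimum to a higher level, up to 91.7% in lmnb3.L.

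Import receptors held 27 sites in 14 genes, with a median of 21.5%. The most deeply covered were those of kpna2, which encodes an importin alpha, the adaptor for classical nuclear localisation signals. kpna2.L had 2 sites of nearly equal level, 11.8% (1229 of 10423 reads, 11.2 to 12.4) and 12.3% (877 of 7143 reads, 11.5 to 13.1). kpna2.S had 3, at 14.9%, 29.8% and 24.8% (1229, 1225 and 2271 reads). The upper pair of these lay clear of the L sites, while the interval of the lowest (13.01 to 17.0) touched that of the higher L site. kpnb1.L, which encodes importin beta, had 4 sites from 11.2% to 39.4% at 84 to 178 reads. The highest import receptor sites were in tnpo2.S, a transportin, at 70.9% (39 of 55 reads, 57.9 to 81.2), and in kpna1.L, at 54.8% (51 of 93 reads, 44.7 to 64.6). tnpo2.L had 4 sites between 20.5% and 28.2% on 39 to 53 reads, whose intervals overlap. The importin ipo9.L reached 49.0% (141 of 288 reads, 43.2 to 54.7).

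Export receptors held 17 sites in 6 genes and had the highest median of the role groups, 34.0%, with 4 sites of at least 50%. Of the 17 sites, 10 were in xpo6, the exporter of actin and profilin. The median itself was the level of a site in xpot.S with 50 reads. All sites outside xpo6 had only 35 to 68 reads, so the rank of this median rests in part on thinly covered sites. xpo6.S had 7 sites, and the most methylated was at 79.4% (358 of 451 reads, 75.4 to 82.9; chromosome 9_10S, position 94176549, minus strand). Its next site, 81 nt further 3′, was at 22.2% (328 of 1475 reads, 20.2 to 24.4). The most 5′ site of xpo6.S was also at 50% or above, with 50.2% on deeper coverage (1037 of 2066 reads, 48.0 to 52.3). xpo6.L had 3 sites at 10.9%, 45.3% and 58.4% (2539, 2989 and 687 reads). The general exporter of proteins with leucine-rich signals, xpo1, had 3 sites in its S copy at 33.3%, 42.5% and 66.7%, but on 39, 40 and 36 reads. The intervals of neighbouring levels overlap there, and those of the lowest (20.6 to 49.0) and the highest (50.3 to 79.8) are barely apart. The tRNA exporter xpot.S had 42.9% and 34.0% on 35 and 50 reads, and the mRNA export receptor nxf1.L had 13.2% on 68 reads.

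The 2 sites of Ran cycle genes were in rcc1.S, the nucleotide exchange factor that loads Ran on chromatin, at 25.9% (69 of 266 reads, 21.0 to 31.5), and in ranbp3.S, a cofactor of XPO1, at 16.0% (12 of 75 reads, 9.40 to 25.9). The name rule also took in 6 sites of genes with a main role elsewhere: 5 in rcc2.L, a regulator of mitosis, from 16.2% to 47.7% at 517 to 3257 reads, and 1 in ranbp9.S at 16.1%.

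Lamina and envelope genes held 25 sites in 10 genes, with a median of 16.3%. The highest level of all 179 sites was in lmnb3.L, which encodes lamin LIII, the main lamin of the Xenopus oocyte and egg. It was 91.7% (198 of 216 reads, 87.2 to 94.7) at position 95826346 on the minus strand of chromosome 3L. The other 3 sites of lmnb3.L, all 5′ of it, were at 13.3%, 11.9% and 15.9% (3630, 742 and 232 reads). In lmnb3.S, 5 sites ranged from 11.8% to 38.9%, so no site of the S copy came near 91.7%. The B-type lamin lmnb1.L had the deepest coverage of all members, with 21.7% (2738 of 12595 reads, 21.0 to 22.5) and 43.0% (5381 of 12503 reads, 42.2 to 43.9) at cytosines 35 nt apart. lmnb2, another B-type lamin, had 1 site per copy, at 10.8% (139 reads) in L and 45.4% (152 reads) in S.

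sun1, whose inner membrane protein links lamina and cytoskeleton, had 6 sites in its S copy. Of these, 5 were between 10.5% and 16.3% and 1 was at 54.3% (89 of 164 reads, 46.6 to 61.7). lemd3, an inner membrane protein that restrains Smad signalling, had 42.0% and 10.1% in L and 25.2% and 29.5% in S. syne2.2.S, a partner of SUN proteins, had 11.6% on 43 reads.

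Sites of a single gene differed from each other more often than not. In 32 of 39 gene identifiers with several sites (82.1%), the Wilson intervals of the highest and the lowest site did not overlap, against 69.3% of 3895 such genes in the whole list. Genes with at least 5 sites were 14 of 66 identifiers (21.2%), against 9.73% of 7140. A gene with more sites has more chances of such a gap, so the share of 82.1% is only a description. Among the 28 genes with 3 or more sites, the highest site was the most 5′ in 4, the most 3′ in 8 and an inner one in 16. The more sites a gene has, the more of them are inner. These places were not counted over the whole list, so they are only a description. The 27 identifiers with a single site had levels from 10% to 54.4% and a median of 19.0%.

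**Figure D4:**
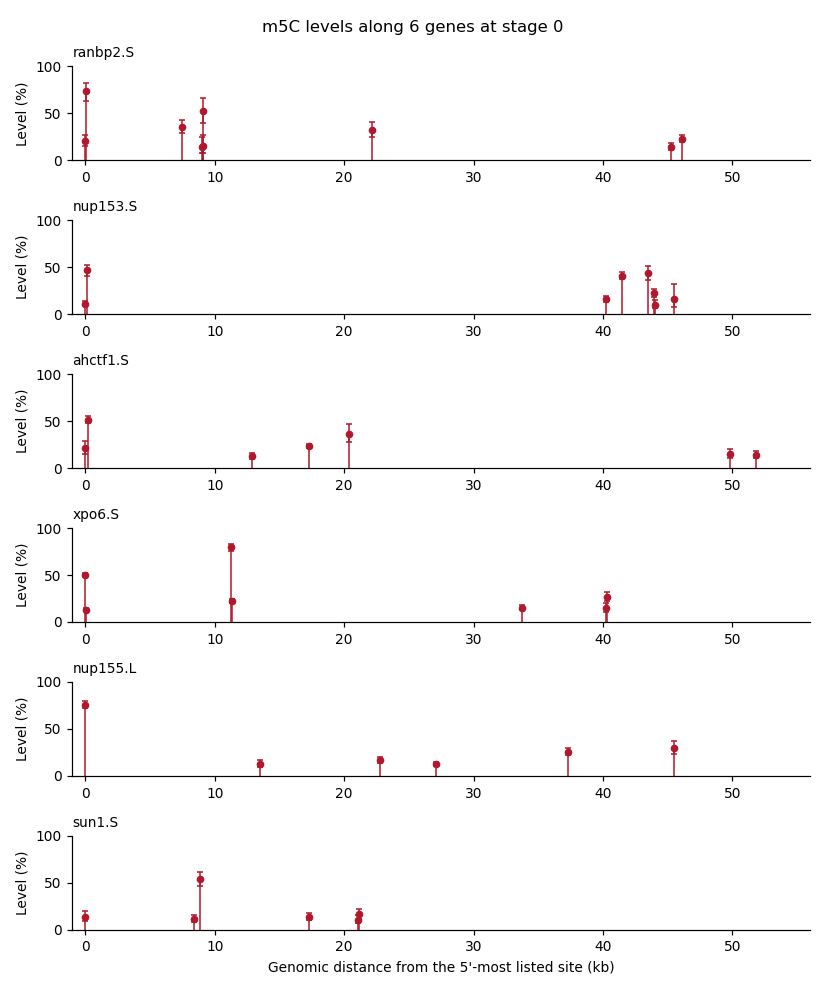
m5C level (%, vertical axes) with 95% Wilson intervals at each listed stage 0 site along the 6 genes with the most sites, by genomic distance in kb from the most 5′ listed site (horizontal axes, introns included). A single site stands clear of the others in nup155.L (76.0%), xpo6.S (79.4%) and sun1.S (54.3%), while in ranbp2.S the interval of the 74.1% site overlaps that of a site at 52.9%.

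Some cytosines lay next to each other. Of the 179 sites, 10 (5.59%) had a listed neighbour at the adjacent base, against 2.88% of the list, and 28 (15.6%) had one within 50 nt, against 11.4%. A gene with more sites has more chances of a near neighbour, so these shares are only a description. In nup133.L, the 5′ cytosine of the adjacent pair had 66.7% (42 reads) and the 3′ cytosine 14.6% (41 reads). The 5′ cytosine was also the higher one in ranbp2.S, with 52.9% and 15.1% (51 and 53 reads), and in tnpo2.S, with 70.9% and 34.6% (55 and 52 reads). In tnpo2.L, 28.2% and 20.5% on 39 reads each had overlapping intervals. kpna2.S went the other way, with 14.9% at the 5′ and 29.8% at the 3′ cytosine (1229 and 1225 reads). Adjacent sites are read from largely the same molecules, so no test of their difference was made. Over the whole list, the 5′ cytosine was higher in 120 and the 3′ cytosine in 114 of 236 adjacent pairs.

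The last comparison was between the L and the S copies. Of 48 base names, 17 had a listed site in each copy, 18 in L alone, 12 in S alone and 1 carried no suffix. Sites in both copies were thus found for 35.4% of base names (against 17.1% of 6046 in the whole list), in L alone for 37.5% (against 38%) and in S alone for 25% (against 22.4%). Names without a suffix can fall in none of these classes. They are 1 of 48 here and a larger part of the 6046, which lowers the whole-list shares more than those of the group. The shares are therefore not on a like footing. The split is by name: kpnb1 and nup205 count as L alone, although the sites of kpnb1.L and 3 of the 4 of nup205.L lie on S chromosomes. In the 17 pairs, the L copies held 43 sites and the S copies 68, against 2664 and 2547 in all 1031 pairs. Over all genes of the group, paired or not, 89 sites were in .L names and 89 in .S names. The S copy had more sites in 11 pairs (64.7%) and the L copy in 3 (17.6%), against 32% and 37.8% of 1031 pairs in the whole list. The numbers were equal in 3 pairs (17.6%, against 30.2% of all pairs). These counts were looked at after the site numbers of single genes had been seen. The largest differences were in ranbp2 (2 in L and 9 in S), nup153 (2 and 8) and sun1 (1 and 6). In 7 of the 14 unequal pairs (50%), the copy with more sites also had the most deeply covered site, against 69.7% of 720 unequal pairs in the list. A copy with more sites has more from which this maximum is taken. The part of coverage and expression in the site numbers was not tested.

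The level of the top site, that with the highest lower Wilson bound, was compared between the copies of each pair with Fisher's exact test on C and T reads (two-sided, Benjamini-Hochberg adjustment over all 1031 pairs). It differed in 11 of the 17 pairs (64.7%), against 71.5% of all pairs. L was higher in 4 (against 36.6% of all pairs) and S in 7 (against 34.9%). Each top site was picked for its high level on the reads that were then tested, and a copy with more sites has more to pick from, so these p-values describe the picked sites only. Of the 9 called pairs with unequal site numbers, the copy with more sites was the higher one in 7, against 70.7% of 523 such pairs in the list. The test covers counting error alone, and whether both top sites are the same cytosine of the ancestral gene was not analysed here. Whole-list pairs came out different more often than not too, so a difference between copies does not set these genes apart.

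S was higher in kpna2 (12.3% in L and 29.8% in S, difference −17.5 points, Newcombe 95% interval −20.2 to −14.9, adjusted p = 6.56e-48 by Fisher's exact test). It was also higher in lmnb2 (10.8% in L and 45.4% in S, −34.6 points, −43.6 to −24.7) and in ranbp2 (25.5% in L and 74.1% in S, −48.6 points, −61.3 to −32.0). The adjusted p of Fisher's exact test was 1.00e-10 for lmnb2 and 6.91e-08 for ranbp2. These 3 pairs kept their call in every setting tried in which both copies still had a site. For lmnb2, with 1 site per copy, those settings compared the same reads, so only the adjustment of p could vary. In kpna2 every site had at least 1225 reads, so the minimum coverages removed none of them. In sun1 the top site was at 10% in L and 54.3% in S. At the most deeply covered sites of both copies, however, the difference was −3.62 points (adjusted p = 0.380, Fisher's exact test). With the reads of all listed sites pooled, it was −8.24 points and was called (adjusted p = 0.0194, Fisher's exact test). tnpo2 (28.2% in L and 70.9% in S) and nup35 (25.5% in L and 34.5% in S) were also called, but not with Bonferroni adjustment of Fisher's exact test (adjusted p = 0.0599 for tnpo2 and 0.0510 for nup35). The direction in nup35 turned to 3.66 points when the reads of all listed sites were pooled.

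xpo6 was called with 58.4% in L and 79.4% in S (−21.0 points, −26.1 to −15.6). This call depends on the site compared, since the most deeply covered sites of xpo6 differed by 32.4 points in the opposite direction. L was higher in lmnb3 (91.7% in L and 38.9% in S, 52.8 points, 41.5 to 62.7, adjusted p = 8.15e-21, Fisher's exact test) and in nup133 (66.7% in L and 11.9% in S, 54.8 points, 36.3 to 68.5). The difference in lmnb3 rests on the single 91.7% site, as it was 1.43 points at the most deeply covered sites and −3.81 points over pooled reads. That in nup133 was 6.50 points at the most deeply covered sites and was not called there. Over pooled reads the difference in nup133 was 23.9 points and was called. lemd3 (42.0% in L and 29.5% in S) and nup88 (27.0% in L and 11.9% in S) were called as well, nup88 on 42 reads in S with an adjusted p of 0.0432 by Fisher's exact test. Neither of these was called with Bonferroni adjustment or over pooled reads, where the difference was −0.36 points in lemd3 and 7.33 in nup88.

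No difference was called in 6 pairs. The intervals of the difference were −9.0 to 5.39 points in ahctf1 (49.6% in L and 51.4% in S), −3.69 to 8.56 in ndc1 (38.8% in L and 36.3% in S) and −12.7 to 0.279 in nup153 (40.5% in L and 46.6% in S). They were −16.9 to 6.39 in kpna3, −10.2 to 6.94 in nup50 and 0.935 to 20.4 in kpna7. These intervals are not adjusted for the number of pairs, whereas the calls are. That of kpna7 therefore lies wholly on the side of a higher L, although its adjusted p was 0.0513 (Fisher's exact test). The intervals of kpna3, nup50, kpna7 and nup153 reach past 10 points, so differences of that size were not excluded at this depth. Between the most deeply covered sites of each copy, ahctf1 (−12.6 points), nup153 (−27.4 points) and ndc1 (16.2 points) were called. Over pooled reads ndc1 (4.96 points) and kpna7 (12.2 points) were called, and kpna7 was also called at a minimum of 50 reads.

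**Figure D5:**
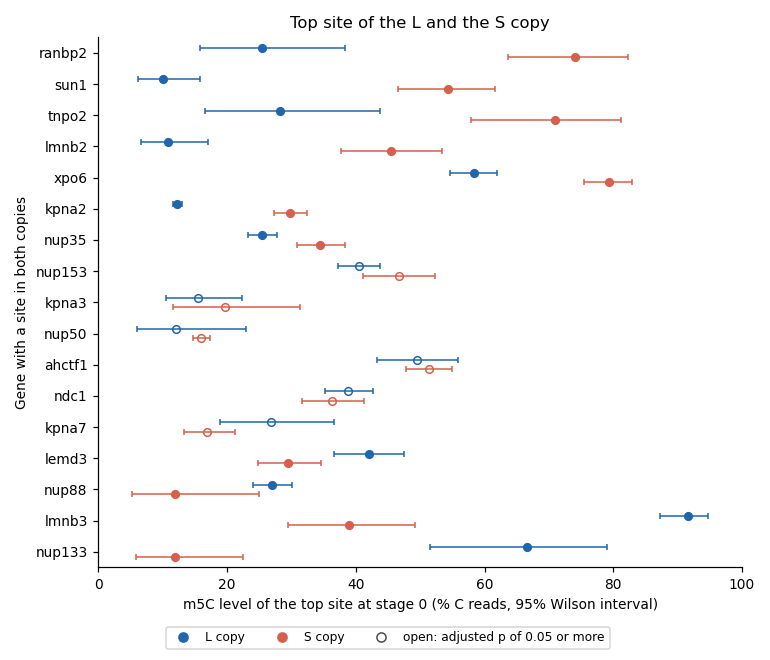
m5C level of the top site (% C reads, horizontal axis) with its 95% Wilson interval in the L copy (blue, upper point) and the S copy (red, lower point) of the 17 genes with a listed stage 0 site in both, with filled points for an adjusted p under 0.05. S lies above L in 7 called pairs and L above S in 4, among them lmnb3 with 91.7% in L and 38.9% in S.

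Genes of the same pathways under other names, 54 in a list chosen by function, had a site in either copy in 0 cases at stage 25 and in 32 at stage 0. Of the 54, 47 are base names of protein-coding genes in RefSeq, and all 32 are among these. Counted in the same way, 48 of 73 base names of the pore, transport and envelope genes had a site, against 29.5% of 14652 base names in RefSeq. These shares too depend on how often listed names match RefSeq. The 80 sites of the genes under other names had a median level of 22.2%, beside 21.8% for the 179 sites. Of 25 genes of the pore and mRNA export, 18 had a site, with 49 sites at a median of 19.1%. Most were in mcm3ap, the scaffold of the mRNA export complex TREX-2, which had 11 sites from 11.6% to 81.2%, and in thoc2 and ddx19b with 8 each. The highest level among these 25 genes was 85.3%, at the single site of ncbp3 (95 reads), and phax reached 80.4%. Of 20 envelope and lamina genes, 11 had a site, with 26 sites at a median of 25.1%. They reached 94.0% in ctdnep1, an envelope phosphatase, 90.1% in tor1a, an ATPase of the envelope lumen, and 73.9% in tmpo, which encodes the lamina-associated polypeptide LAP2. Of 9 adaptors and Ran factors 3 had a site, among them rangrf, a Ran-binding factor, at 64.8% on 54 reads.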

How the data were processed

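The authors trimmed reads with cutadapt and Trimmomatic, mapped them to the in silico converted X. laevis v9.2 genome (Xenbase) with HISAT2 and the remainder to the converted transcriptome with Bowtie2. Reads rich in unconverted C were removed, which lowers background and also loses reads with many true m5C sites. Sites passed minimum values of coverage (20 reads), C reads, level (10%) and signal ratio, outside conversion-resistant genes. The deposited lists hold, per site, coverage as counts of C and T reads, not normalized, the level as a fraction (given here in percent), and the combined p-value of the authors' call. Coverage times level gave whole C reads at all 16233 and 45 sites (tolerance 0.001). Library totals were not used here, so coverage was not scaled between stages.

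Members were found by name, and roles were assigned by hand. Members and lists were chosen with earlier results of these data known. Genes named in the text are those with the 8 largest site numbers, the 12 top sites by lower Wilson bound (1 per gene), all L and S pairs, genes with 3 or more sites or a site of at least 50% in each role, and a fixed list of central transport genes and lamins. Single-site genes beyond these are named to complete a role. Genes of the same pathways under other names were picked for their site numbers or high levels after these had been seen. Of 65 names, 63 matched a RefSeq symbol of Xenopus_laevis_v10.1, from which no coordinates were taken. Sequence motif, site class and location in exon or UTR were not analysed here. Fisher's exact test was tried on counts simulated at sites already chosen, so the choice of the top site was not part of that trial. The alternatives were other minimum coverages, levels and call p-values, chromosomes alone, a narrower name rule, other top sites and Bonferroni adjustment. Python 3.11.15, pandas 2.3.3, numpy 2.4.6, scipy 1.17.1, statsmodels 0.14.6 and matplotlib 3.10.9 were used.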

Additional observations from a re-analysis of the deposited data

How the results depend on the processing

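No paired analysis was possible because each list holds 1 combined value per site and stage, and for the same reason no replicate could be left out. Levels at sites listed at both stages gave no value, as 0 of the 179 sites were shared. The settings only tighten the deposited lists, so the count of 0 sites at stage 25 could not change in them. No stage 0 site was lost at a call p of at most 1e-06. Raising the minimum level to 20% or 30% left 100 or 53 sites, with a median of 32.8% or 45.3% and a share of 17.0% or 32.1% at 50% and above, as the construction of these settings implies. The genes fell to 36 at a minimum level of 30% and to 43 at a minimum of 100 reads, as stricter minimum values remove genes by construction. With each gene identifier counted once by the mean level of its sites, the median of these means was 25.8%. The pooled level over all reads was 24.9%. Of the L and S pairs, 7 of 17 were called with Bonferroni adjustment (lost in tnpo2, nup35, lemd3 and nup88), against 50.7% of all 1031 pairs. At a minimum level of 20%, 6 of 9 were called, against 70.4% of 605 pairs in the whole list. With the most deeply covered site of each copy, the sign of the difference changed in nup35 (3.18 points, not called) and xpo6 (32.4 points, called). With pooled reads the sign changed in lemd3 (−0.36, not called). It also changed there in lmnb3 (−3.81), nup35 (3.66) and xpo6 (2.31), which were called. These settings compare other cytosines, and no other cause was tested. Over all settings, 3 pairs were called in both directions (lmnb3, nup35 and xpo6) and 2 in none (kpna3 and nup50).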
